A study of Rattus norvegicus with 82 samples.

Results

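The locus coeruleus arrays of rats labelled ADX were compared with those of rats labelled Sham, 4 arrays against 4. They were picked by the region code LC in the title, and they are 8 of the 82 rat brain arrays of the series. Another 4 arrays of the same region, labelled pADX, serve as a second point of comparison. The labels do not spell out these codes: in this field ADX commonly means that both adrenals were surgically removed and Sham that the operation was mimicked, while the p of pADX is left unexplained. Each treatment has 2 AM and 2 PM arrays, numbered replicate 1 and replicate 2 by the letter b at the end of a title. No label used here tells strain, sex, age, time after surgery or hormone replacement, or whether an array holds 1 animal or a pool, so p-values measure only the spread between these arrays, which may be technical. The source name of all 12 arrays says frontal cortex, and so do the opening words of each title. The region code LC in the title and the description name the locus coeruleus instead.

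The adrenal cortex releases corticosterone, the main glucocorticoid of the rat, in a daily rhythm that peaks around the start of the active phase. The hormone binds the glucocorticoid receptor (Nr3c1) and the mineralocorticoid receptor (Nr3c2), which enter the nucleus and raise or lower the transcription of target genes, many of them in astrocytes. The locus coeruleus is a small brainstem nucleus whose neurons make noradrenaline and send it to most of the brain; they express both the enzymes and transporters of noradrenaline and the glucocorticoid receptor.

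The labelled region was checked against noradrenergic markers. Dbh, the enzyme that turns dopamine into noradrenaline, ran from 6.42 to 9.90 in the 12 locus coeruleus arrays on the log2 scale of normalized intensity, on which 4 is the floor. Its median lay at or near the floor in the 6 other regions, 4.11 at most. Several other markers on the noradrenergic list separated the regions less. Median Th was 8.98 here, 8.35 in the dorsal raphe and 8.75 in the hypothalamus. The medians of Slc18a2 (9.27) and Ret (8.24) lay below those in the dorsal raphe (10.04 and 8.47). Slc6a2 (median 4.60, at the floor in 3 of the 12 arrays) and Phox2a (5.47) had dorsal raphe medians at the floor. Neurod6, a transcription factor of forebrain excitatory neurons, ran from 5.20 to 6.14 in the locus coeruleus, against a median of 9.90 in the frontal cortex. Tbr1, a cortical transcription factor, was at the floor in all 12 arrays. The levels of Dbh, Neurod6 and Tbr1 match the region code LC in the title rather than the words frontal cortex in title and source name. Slc6a4, the serotonin transporter, was also present at 8.11 to 10.65, against a median of 10.70 in the dorsal raphe, so the tissue held serotonergic RNA too.

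The ADX and Sham arrays were on different scales in the deposited table. The mean intensity after trimming 2% at each end was 91.7 to 117 in the 4 ADX arrays, against 150.04 to 150.05 in the 4 Sham arrays; 3 pADX arrays were at 150.04 or 150.05 and the other at 95.6. All arrays were therefore quantile normalized, which forces 1 distribution on them, so that every change below is relative to the bulk of probe sets and a shift of all genes together could not be seen. The median deposited intensity, 35.0 to 43.6 in ADX arrays and 50.8 to 56.0 in Sham arrays, did not overlap (two-sided exact permutation p = 0.0286, the smallest that 4 against 4 arrays can give). The ratio of 3′ to 5′ beta-actin signal, a sign of RNA quality, was 3.19 to 3.79 in ADX arrays and 3.62 to 3.95 in Sham arrays (exact p = 0.0571), with overlap. The same ratio for GAPDH was 1.17 to 1.32 in ADX arrays and 1.14 to 1.28 in Sham arrays (exact p = 0.8). Fits with the beta-actin ratio as a covariate are given below. Arrays of the region correlated with each other at 0.975 to 0.987 across probe sets, and no 2 arrays of the series were identical.

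**Figure D1:**
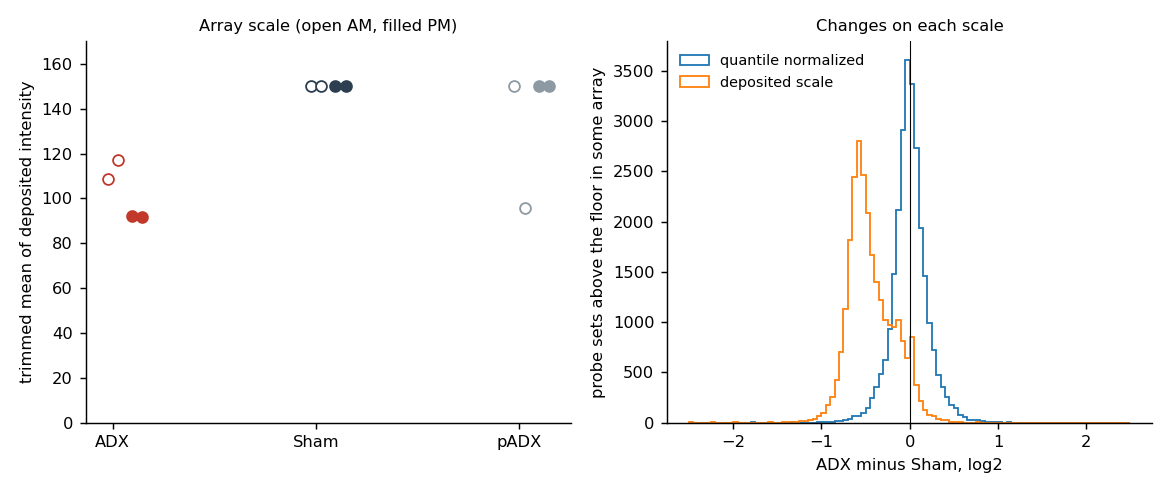
Left, the trimmed mean of deposited intensity of each locus coeruleus array by treatment (open points AM, filled points PM): the 4 ADX arrays lie between 91.7 and 117 and the 4 Sham arrays at 150. Right, the number of probe sets above the floor in some array, by log2 change, ADX minus Sham, on the deposited scale and after quantile normalization: the median of all probe sets is -0.42 on the deposited scale and 0 after normalization.

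Over all 31042 probe sets, 1 was higher in ADX (0.00322%) and 1 was lower (0.00322%) at a limma adjusted p under 0.05, with time of day as a covariate. In each of them 1 group lay wholly at the floor. Cenpu, a centromere protein, read 4.45, 4.39, 4.39 and 4.41 in ADX arrays (AM replicates 1 and 2, then PM replicates 1 and 2, the order kept below), against the floor in all 4 Sham arrays (adjusted p = 0.00528). The uncharacterized LOC102550503 was at the floor in all 4 ADX arrays, against 5.02, 4.88, 5.18 and 5.18 in Sham arrays (adjusted p = 0.0392). Both signals are close to the floor in every array, and neither gene is among the glucocorticoid-related ones. Without adjustment, 929 probe sets were higher (2.99%) and 944 lower (3.04%) at p under 0.05. All 4 ADX arrays lay above all 4 Sham arrays in 432 probe sets (1.39%) and below them in 426 (1.37%).

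The call rests heavily on how dim probe sets are treated. With the test kept to the 18625 probe sets whose mean lay above the 40th percentile (log2 4.81), which was a listed alternative and not the primary test, 3 were higher in ADX (0.0161%) and 24 lower (0.129%) at the same threshold. The primary fit gave the shared spread a weight of 0.72 prior degrees of freedom, against 7.06 in the filtered fit, beside 5 residual degrees of freedom in each. SEs, intervals and unadjusted p-values below are those of the fit over all probe sets, unless the filtered fit is named. Below, "passed the filtered test" refers to these 27 probe sets unless another fit or comparison is named. There it refers to the probe sets that passed the same threshold in that fit, after the same filter. The mean was taken over both groups, so a probe set could enter through 1 group alone. Sult1a1 (4.77), Alas2 (4.46), Dbndd1 (4.42) and Upp1 (4.27) averaged below the cut in ADX arrays, as did some probe sets without a symbol. A probe set without a symbol that was higher in ADX averaged 4.08 in Sham arrays. None of the 27 passed over all probe sets, where their lowest adjusted p was 0.175. They carry 1 gene symbol in 16 cases, several in 5 and none in 6. In fits that left out 1 array each, 12 to 33 probe sets passed, and 7 of the 27 passed in all 8 such fits: Hbb, Htra1 and 5 further globin probe sets. With the beta-actin ratio as a covariate 0 of the 27 passed, and likewise 0 without the trend of spread on level. All 27 kept their direction with that covariate, and the log2 change was then -1.50 for Hbb, -1.20 for Htra1, -1.22 for Prodh and 0.58 for Nrep.

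**Figure D2:**
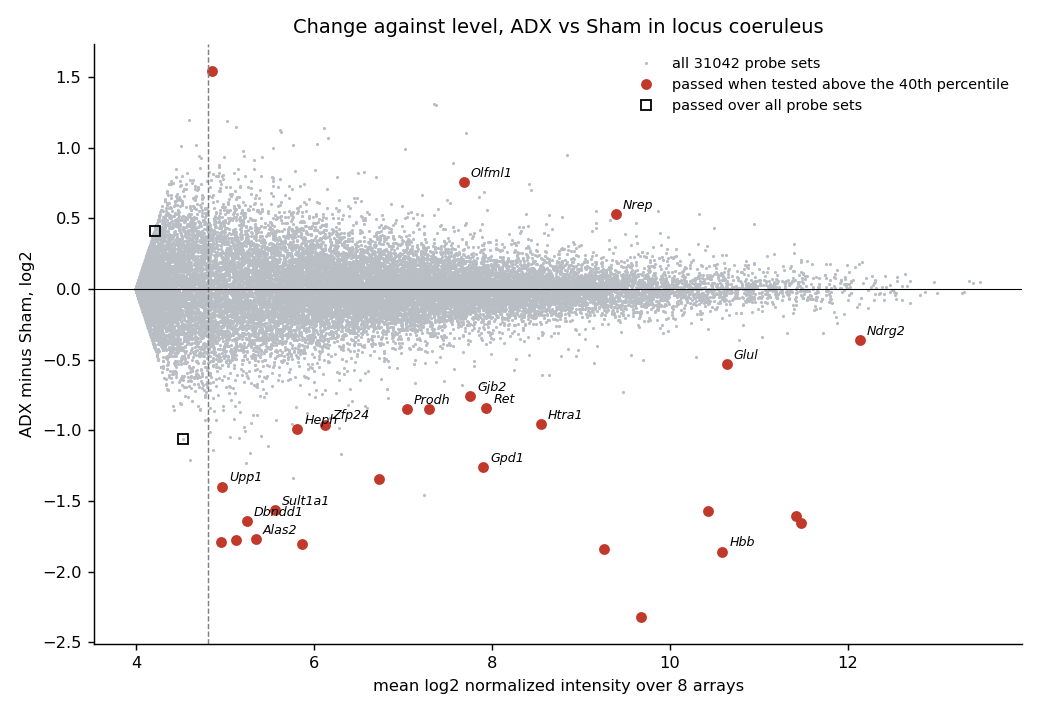
Log2 change, ADX minus Sham, against mean log2 normalized intensity over the 8 arrays for all 31042 probe sets; red points passed the filtered test and are named where they carry 1 gene symbol, open squares passed over all probe sets, and the dashed line marks the 40th percentile. Of the 27 red points, 24 lie below 0, and both open squares lie left of the dashed line.

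Genes that glucocorticoids are known to induce leaned lower in ADX, and 3 of them passed the filtered test. Of a list of 53 such genes, 50 were measured; 11 were lower and 0 higher at unadjusted p under 0.05 (22% and 0%), and 9 had all 4 ADX arrays below all 4 Sham arrays (18%). Over all 14217 named genes, 3.48% were lower and 3.25% higher at that p, and 1.54% lay wholly below. The list's median change was -0.15, against 0 over all genes. Its members were chosen with earlier results of these data known, so these shares are not independent support. The 11 lower members became 4 with the beta-actin ratio as a covariate and 37 on the deposited scale, where the median change over all probe sets was itself -0.42. No member passed over all probe sets (lowest adjusted p = 0.372), and 3 of the 42 above the 40th percentile passed the filtered test, all lower: Sult1a1, Gpd1 and Ndrg2. None of these 3 passed with the level of Dbh as a covariate. In these tissue samples, as for every gene below, fewer cells of a type and less RNA per cell cannot be told apart.

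Sult1a1, a phenol sulfotransferase, showed the largest change of the list. It read 5.05, 4.96, 4.73 and 4.35 in ADX arrays, against 6.07, 6.31, 6.76 and 6.21 in Sham arrays, with no overlap. That is 2.96-fold lower in ADX (log2 change -1.57, SE 0.23; filtered adjusted p = 0.0117, 0.372 over all probe sets). The probe set lost the filtered call when Sham AM replicate 2, Sham PM replicate 1 or Sham PM replicate 2 was left out, with an adjusted p of at most 0.0572.

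Gpd1, cytosolic glycerol-3-phosphate dehydrogenase, which links sugar breakdown to lipid synthesis, read 7.23, 7.01, 7.58 and 7.25 in ADX arrays, against 7.83, 7.82, 9.24 and 9.23 in Sham arrays. It was 2.39-fold lower in ADX (log2 change -1.26, SE 0.25; filtered adjusted p = 0.0209, 0.556 over all probe sets). The Sham PM arrays were the high ones, and without either of them, or without ADX AM replicate 2, the filtered call was lost (adjusted p of at most 0.126). Its second, dimmer probe set had a log2 change of -1.21, with all 4 ADX arrays at the floor.

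Htra1, a secreted serine protease, was not on the list but was among the genes chosen for naming. It read 7.82, 8.08, 8.42 and 7.96 in ADX arrays, against 9.16, 9.01, 9.06 and 8.88 in Sham arrays. It was 1.94-fold lower in ADX (log2 change -0.96, SE 0.14; filtered adjusted p = 0.0101, 0.372 over all probe sets). No ADX array reached the lowest Sham array.

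Glul is glutamine synthetase, the astrocyte enzyme that turns glutamate into glutamine. One of its 3 probe sets passed the filtered test, reading 10.23, 10.09, 10.53 and 10.64 in ADX arrays, against 10.72, 10.99, 10.90 and 10.98 in Sham arrays (log2 change -0.53, SE 0.10; filtered adjusted p = 0.0373). The brightest probe set, which stands for Glul in the list, differed by -0.34 (SE 0.10; unadjusted p = 0.0149), and the third by -0.47. The call of the probe set that passed was lost in 7 of the 8 fits that left out 1 array (adjusted p of at most 0.150). Ndrg2, a stress-responsive protein abundant in astrocytes, read 12.05, 11.96, 11.90 and 11.88 in ADX arrays, against 12.24, 12.25, 12.38 and 12.38 in Sham arrays (log2 change -0.36, SE 0.07; filtered adjusted p = 0.0397). The gap is small and free of overlap, and the filtered call was lost in 7 of the 8 fits that left out 1 array (adjusted p of at most 0.229).

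Other members of the list were lower in every ADX array without passing either test. Mt2A, a metallothionein that binds zinc and copper, averaged 7.53 ± 0.22 in ADX arrays and 8.07 ± 0.08 in Sham arrays (SD, n = 4 each; log2 change -0.54). Fkbp5, an Hsp90 co-chaperone that restrains the glucocorticoid receptor, read 6.20, 6.12, 6.10 and 6.06 in ADX arrays, against 6.37, 6.41, 6.52 and 6.60 in Sham arrays (log2 change -0.35). Ccn2, a secreted matrix-associated protein, had a log2 change of -0.88 and Angptl4, a secreted inhibitor of lipoprotein lipase, one of -0.84. Mertk, a receptor tyrosine kinase used in the uptake of dead cells, had one of -0.43. With Sult1a1, Gpd1, Glul and Ndrg2 these make the 9 members whose groups did not overlap, all with an unadjusted p under 0.05; the other 2 at that level, the phosphatase Dusp1 (-0.34) and the repressor Bcl6 (-0.19), overlapped between groups.

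Several textbook glucocorticoid targets overlapped between ADX and Sham. Sgk1, a kinase that regulates ion transport, read 7.76, 7.56, 7.52 and 7.43 in ADX arrays, against 7.61, 7.70, 9.29 and 8.33 in Sham arrays. Only the Sham PM arrays stood above the ADX range, and the log2 change of -0.66 had an SE of 0.35 (unadjusted p = 0.108). In the filtered fit the limma p of Sgk1 was 0.0221 unadjusted and 0.663 adjusted. Tsc22d3, also called GILZ, a glucocorticoid-induced leucine zipper protein, differed by -0.11 (95% interval -0.38 to 0.15), Klf9 by -0.22 (-0.58 to 0.15), Ddit4 by -0.09 (-0.45 to 0.26) and Hsd11b1, which regenerates active glucocorticoid inside cells, by -0.19 (-0.63 to 0.26). Per1, a clock gene with glucocorticoid response elements, was at the floor in all 4 ADX arrays and in 2 Sham arrays, with Sham PM replicate 1 at 5.25. The mineralocorticoid receptor Nr3c2 averaged 6.98 ± 0.13 in ADX arrays and 6.78 ± 0.06 in Sham arrays (SD, n = 4 each; no overlap, unadjusted p = 0.0456). The glucocorticoid receptor Nr3c1 averaged 8.52 ± 0.23 in ADX arrays and 8.23 ± 0.19 in Sham arrays (SD, n = 4 each, overlap, unadjusted p = 0.0715). In the filtered fit its limma p was 0.0271 unadjusted and 0.67 adjusted.

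**Figure D3:**
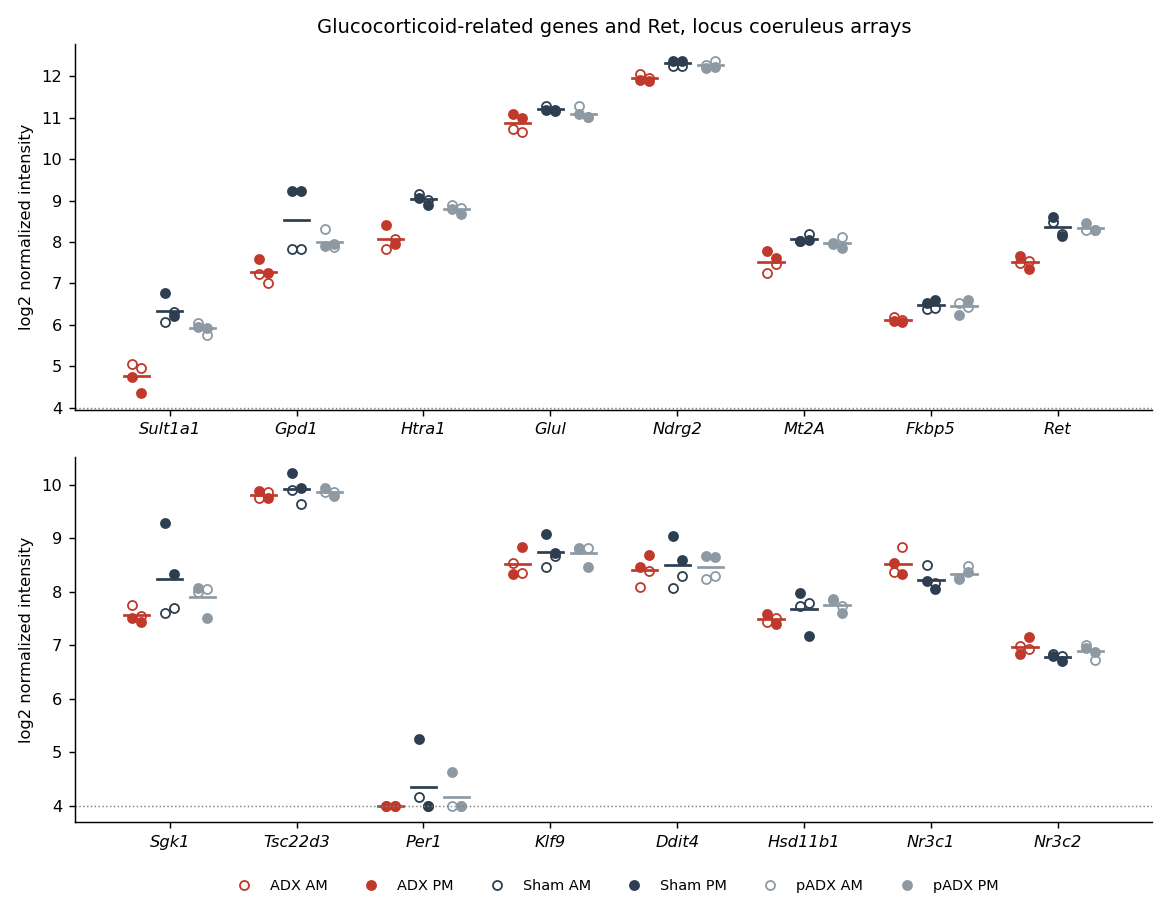
Log2 normalized intensity in each locus coeruleus array (points; open AM, filled PM) with the mean of 4 arrays (lines) for ADX, Sham and pADX; the dotted line is the floor at 4. In the upper panel all 4 ADX points of each gene lie below all 4 Sham points; in the lower panel the groups overlap for all genes except Nr3c2.

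The promoters of the list were searched for ACANNNTGT, the core of the palindrome that glucocorticoid receptor dimers are known to bind, and for a longer form of it, with GN before and NC after the core. Each equals its own reverse complement, so a single search covers both strands, and every longer match also holds the core. RefSeq promoters of build GRCr8, 250 bases before to 50 after a gene's start, were held for 41 of the list's genes (48 promoters). The longer motif stood in 2 of them (4.17%), those of Map3k6 and Fam107a, and in 0.439% of all 33469 promoters. The core stood in 6 (12.5%), against 6.86% of all promoters. Map3k6 and Fam107a themselves had log2 changes of 0.10 and 0.16, and their groups overlapped. Of the 10 promoters of the genes with all ADX arrays below all Sham arrays (8 of the 9 genes had one), 0 held the longer motif and 1, that of Glul, the core. The promoters of Sult1a1, with the largest change, and of Glul, with the one core match, are shown 5′ to 3′ along the gene's strand in lower case, with the core in capitals. Sult1a1 lies at chr1:190706063-190706362 on the minus strand and Glul at chr13:68519250-68519549 on the plus strand.
Sult1a1: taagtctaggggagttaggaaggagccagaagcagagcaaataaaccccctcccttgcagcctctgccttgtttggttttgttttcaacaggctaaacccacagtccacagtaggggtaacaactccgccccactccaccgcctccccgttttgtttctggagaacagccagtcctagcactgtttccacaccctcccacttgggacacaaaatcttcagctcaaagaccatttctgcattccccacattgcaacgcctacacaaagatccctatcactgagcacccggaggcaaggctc
Glul: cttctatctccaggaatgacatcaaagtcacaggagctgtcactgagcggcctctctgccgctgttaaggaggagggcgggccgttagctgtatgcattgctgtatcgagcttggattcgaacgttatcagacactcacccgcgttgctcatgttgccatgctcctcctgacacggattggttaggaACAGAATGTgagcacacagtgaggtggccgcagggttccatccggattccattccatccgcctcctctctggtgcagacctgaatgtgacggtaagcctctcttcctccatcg

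The Sult1a1 window holds no core, which says only that these letters are not in this window. The match in Glul starts at base 188 of the window. A match is a description of the sequence and not evidence of binding.

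Haemoglobin RNA was lower in ADX. Of 7 globin probe sets, all 7 had every ADX array below every Sham array, against 1.37% of all probe sets. The filtered test was passed by 6 of them, where 0.129% of the tested probe sets passed as lower. Several are shared between globin genes, so the 7 are not separate results. Hbb, the beta chain, read 9.49, 10.22, 9.93 and 8.99 in ADX arrays, against 11.59, 11.73, 11.30 and 11.45 in Sham arrays, 3.63-fold lower (log2 change -1.86, SE 0.25; filtered adjusted p = 0.00194, 0.367 over all probe sets). The probe sets shared by the alpha-chain genes Hba-a1 and Hba-a2, which cannot be assigned to one of them, differed by -1.57 to -1.66. Those shared by 2 beta-chain genes differed by -1.84 and -2.32, and Hba-a3 by -1.45. Alas2, the erythroid form of the first enzyme of heme synthesis, was at the floor in ADX AM replicate 1 and read 5.07, 4.41 and 4.35 in the other ADX arrays, against 6.26, 6.59, 5.96 and 6.11 in Sham arrays. With 1 ADX array at the floor it was at least 3.41-fold lower in ADX (filtered adjusted p = 0.0104). The summed intensity of the 3 measured blood markers (Hbb, Alas2 and Slc4a1) ran from 546 to 1259 in ADX arrays and from 2619 to 3530 in Sham arrays. Slc4a1, the anion exchanger of red cells, did not follow the other two: it averaged 4.88 ± 0.59 in ADX arrays and 4.98 ± 0.31 in Sham arrays (SD, n = 4 each; log2 change -0.10, 95% interval -0.95 to 0.74). Globin and Alas2 RNA mark red blood cells and their precursors, and nothing in the labels says whether the animals were perfused. The part of blood in the other changes was not tested.

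Of 13 measured iron and heme genes, 3 were lower at unadjusted p under 0.05 and 0 higher (23.1% and 0%, against 3.48% and 3.25% over all named genes); they were Alas2, already given with blood, Heph and Fech. Heph, hephaestin, a copper-dependent enzyme that oxidizes iron leaving cells, read 5.66, 5.10, 5.29 and 5.21 in ADX arrays, against 6.19, 6.51, 6.26 and 6.26 in Sham arrays (log2 change -0.99, SE 0.15; filtered adjusted p = 0.0472). It lost the filtered call in 7 of 8 fits that left out 1 array. Fech, the last enzyme of heme synthesis, had a log2 change of -0.22 with no overlap. The iron and heme list was also chosen with earlier results of these data known.

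Ret and 5 further named genes of other roles passed the filtered test as lower. Ret, the receptor tyrosine kinase of the GDNF family of growth factors, read 7.49, 7.53, 7.67 and 7.36 in ADX arrays, against 8.47, 8.20, 8.60 and 8.15 in Sham arrays, 1.79-fold lower (log2 change -0.84, SE 0.13; filtered adjusted p = 0.0150, 0.372 over all probe sets). Its dimmer probe sets differed by -0.74 and -0.18. Prodh, the mitochondrial enzyme that starts proline breakdown, read 6.69, 6.53, 6.61 and 6.62 in ADX arrays, against 7.67, 7.40, 7.62 and 7.17 in Sham arrays (log2 change -0.85, SE 0.12; filtered adjusted p = 0.0209). The ADX arrays were tightly grouped below the lowest Sham array. Gjb2, the gap junction protein connexin 26, had a log2 change of -0.76 (SE 0.11; filtered adjusted p = 0.0209). Upp1, uridine phosphorylase, was at least 2.64-fold lower, with 2 ADX arrays at the floor. Dbndd1 was at least 3.12-fold lower on a dim probe set with 2 ADX arrays at the floor, while its brighter probe set differed by -0.02. The zinc finger gene Zfp24 had a log2 change of -0.96 on 1 probe set and of -0.38 and -0.18 on its 2 brighter ones. Ret lost the filtered call in 4 of the 8 fits that left out 1 array, Gjb2 in 5, Prodh, Upp1 and Dbndd1 in 6 each and Zfp24 in 7.

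Nrep and Olfml1 were the 2 named genes that passed the filtered test as higher. Nrep, a small protein linked to nerve regeneration, read 9.67, 9.72, 9.52 and 9.69 in ADX arrays, against 9.14, 9.13, 9.16 and 9.06 in Sham arrays (log2 change 0.53, SE 0.05; filtered adjusted p = 0.0103, 0.175 over all probe sets). Olfml1, a secreted olfactomedin-like protein, read 8.06, 8.16, 7.90 and 8.12 in ADX arrays, against 7.29, 7.16, 7.58 and 7.17 in Sham arrays (log2 change 0.76, SE 0.12; filtered adjusted p = 0.0237). Its other probe set differed by 0.56. In the 8 fits that left out 1 array, Nrep lost the filtered call in 3 (adjusted p of at most 0.0633) and Olfml1 in 6 (at most 0.137). Among genes that passed neither test, those with the lowest unadjusted p in the higher direction were Rbm45 (0.21), the cholesterol exporter Abca1 (0.59), Il17b (0.48), the basement membrane protein Nid1 (0.45), Tmco3 (0.77), the sterol transporter Abcg1 (0.21), Pyurf (0.20) and Emp1 (0.74), in log2 change. In the lower direction they were Ifrd1 (-0.27), Trmt1 (-0.25), Uqcc1 (-0.23), Anks1a (-0.33) and Higd1a (-0.14). All 13 had non-overlapping groups, which is what the choice by lowest p selects. Other probe sets of Abca1, Abcg1, Tmco3 and Pyurf differed by values from -0.56 to 0.16, so these 4 genes are uncertain.

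None of the 19 measured noradrenergic markers passed over all probe sets. Of the 18 above the 40th percentile only Ret passed the filtered test, as lower, where 0.129% of the tested probe sets did so. The noradrenaline transporter Slc6a2 lay below that percentile and was not in the filtered test. Th, tyrosine hydroxylase, the rate-limiting enzyme of catecholamine synthesis, read 8.97, 9.62, 8.99 and 9.67 in ADX arrays, against 9.93, 7.74, 8.48 and 7.30 in Sham arrays. The Sham arrays spanned the ADX range (log2 change 0.95, SE 0.59, 95% interval -0.52 to 2.42, unadjusted p = 0.164). In the filtered fit the limma p of Th was 0.0409 unadjusted and 0.723 adjusted. The change in Th moved with the setting: it was 0.0013 with the beta-actin covariate, 0.41 with the Dbh covariate and 1.49 without Sham AM replicate 1, with adjusted p never under 0.442 over 25 settings. Dbh read 8.05, 9.29, 8.51 and 9.31 in ADX arrays, against 9.90, 7.0, 8.57 and 6.71 in Sham arrays (log2 change 0.75, 95% interval -1.27 to 2.76). The vesicle transporter Slc18a2 differed by 0.39 (-0.51 to 1.29), the noradrenaline transporter Slc6a2 by 0.41 (-0.20 to 1.02), the cofactor enzyme Gch1 by 0.17 (-0.28 to 0.62), the autoreceptor Adra2a by 0.20 (-0.42 to 0.82) and the peptide galanin, Gal, by 0.46 (-0.51 to 1.43). The interval for Dbh holds more than 2-fold differences in either direction. Over the 14 measured genes of catecholamine synthesis, storage and breakdown, 0 were higher and 0 lower at unadjusted p under 0.05, with a median change of 0.10. In the filtered fit, which tested 12 of them, only Th was under that level.

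Slc6a4 read 9.94, 9.07, 9.57 and 9.41 in ADX arrays, against 8.11, 10.28, 9.43 and 10.65 in Sham arrays. Among the Sham arrays Dbh and Slc6a4 ran in opposite order. Sham AM replicate 1, with the highest Dbh of its group (9.90), had the lowest Slc6a4 (8.11), and Sham PM replicate 2, with the lowest Dbh (6.71), had the highest Slc6a4 (10.65). The SD of Dbh was 0.62 among ADX arrays and 1.48 among Sham arrays (n = 4 each). In a fit with the level of Dbh as a covariate, 17 probe sets passed the filtered test and 15 of the 27 were among them. Ttr, a choroid plexus gene, stood at 11.92 in ADX PM replicate 1 and at 5.67 to 7.99 in the other ADX arrays, against 5.04 to 9.21 in Sham arrays. Without that array 33 probe sets passed the filtered test, 23 of the 27 among them.

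**Figure D4:**
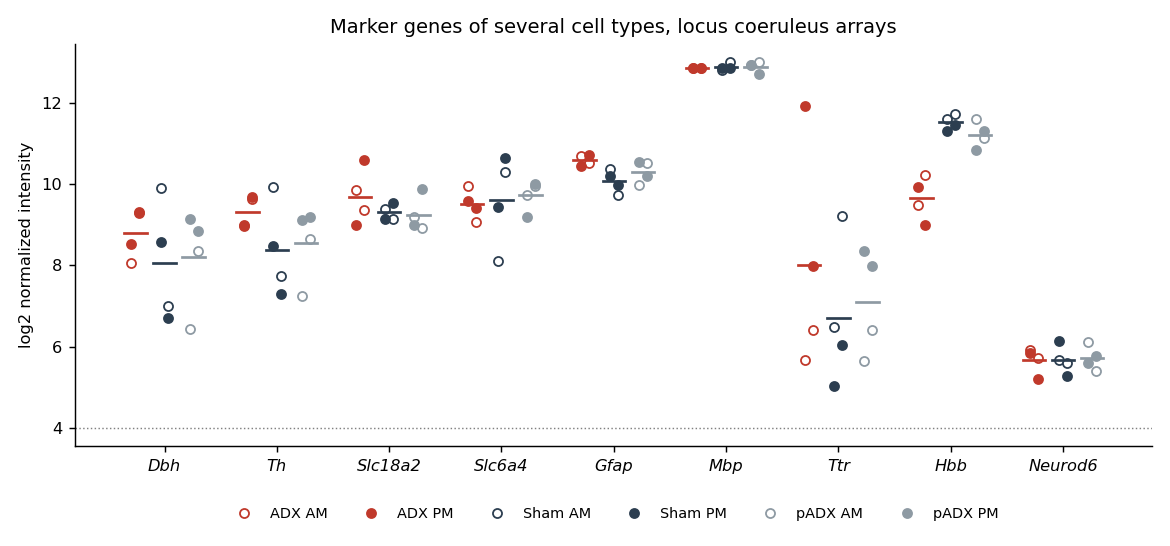
Log2 normalized intensity of marker genes in each locus coeruleus array (open points AM, filled points PM; lines, means of 4) for ADX, Sham and pADX. Dbh and Th spread more widely in Sham than in ADX arrays, Ttr is at 11.92 in 1 ADX PM array, and all 4 ADX points of Hbb lie below all 4 Sham points.

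Markers of other cells were read against the 3.25% of all named genes that were higher and the 3.48% that were lower at unadjusted p under 0.05. With 1 probe set for each gene, none of those given here passed over all probe sets or in the filtered test. Of 10 astrocyte markers, 2 were higher and 1 lower at that p (20% and 10%): Gfap, the intermediate filament protein, averaged 10.59 in ADX arrays and 10.06 in Sham arrays without overlap (log2 change 0.53), Aqp4, the water channel, differed by 0.18 and Aldoc, a glycolytic enzyme, by -0.24. Their summed intensity was 19777 to 20652 in ADX arrays and 19189 to 21423 in Sham arrays, so the astrocyte sums overlapped. Of 12 oligodendrocyte markers 2 were higher (Ermn and Cnp, 16.7%) and 1 lower (Mal, 8.33%), and the sums overlapped, at 26271 to 28435 in ADX arrays and 25921 to 28608 in Sham arrays. Of 9 endothelial markers 3 were higher (Slco1a4, Kdr and Tek, 33.3%) and 0 lower at that p. By sign alone, 5 of their changes were positive and 4 negative, with a median of 0.05. The endothelial sums were 1877 to 2059 in ADX arrays and 1777 to 1843 in Sham arrays, and did not overlap. Microglial (0 of 11), general neuronal (0 of 12), cholinergic (0 of 4), cerebellar (0 of 8) and serotonergic (0 of 4) markers gave no difference at that p. Of 8 meningeal and fibroblast markers 2 were higher (25%), Igf2 (log2 change 0.63) and Col3a1 (0.48), and of 5 markers of trigeminal mesencephalic neurons, which border the nucleus, 2 were higher (40%), Avil (0.65) and Pou4f1 (0.19, at the floor in all 4 Sham arrays). The summed levels overlapped for both, at 2374 to 3222 in ADX arrays and 2426 to 2814 in Sham arrays for meningeal markers, and at 598 to 722 in ADX arrays and 602 to 739 in Sham arrays for trigeminal ones. The part of these markers in the other results was not tested.

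Further pathways were counted at unadjusted p under 0.05, where 3.48% of all named genes were lower and 3.25% higher. These lists, too, were chosen with earlier results of these data known, and some share genes with the lists above. Of 35 genes of lipid, sugar and amino acid metabolism 7 were lower and 0 higher (20% and 0%): besides Gpd1, Prodh, Glul and Angptl4 they were the muscle-type glycogen phosphorylase Pygm (-0.56), the serine synthesis enzyme Psat1 (-0.28) and Aldh4a1 (-0.15), which follows Prodh in proline breakdown. Of 16 cholesterol synthesis genes 3 were lower and 0 higher (18.8% and 0%; Fdps -0.26, Msmo1 -0.16, Mvk -0.35), each without overlap. Of 32 neuropeptide genes 2 were lower (6.25%), the opioid precursors Pdyn (-0.71) and Pnoc (-0.42), and 1 higher (3.12%), Vgf (0.32). Of 23 growth factor genes 2 were higher (8.7%), Igfbp5 (0.89), which binds insulin-like growth factors, and Igf2, and 1 was lower (4.35%), Ret. Of 31 GABA and glutamate receptor genes 3 were higher and 2 lower (9.68% and 6.45%), of 21 potassium channel genes 3 lower and 0 higher (14.3% and 0%), and of 23 chaperones 0 in either direction. Of 20 clock genes 2 were higher (10%), the output factors Dbp (0.29) and Tef (0.26), while Per2 (-0.02) and Bmal1 (-0.07) differed little between the means. Of 21 immediate early genes 1 was higher, Egr3, at the floor in all 4 Sham arrays and at 4.27 to 4.62 in ADX arrays, and 1 lower, Dusp1 (4.76% each); Fos differed by 0.03. No member of these lists passed over all probe sets, and with 1 probe set for each gene only Gpd1, Prodh and Ret passed the filtered test; the probe set of Glul that passed is not the one that stands for it here.

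The ADX difference was also compared between PM and AM, since corticosterone has a daily rhythm. Over all probe sets the difference of differences passed in 5 with a positive sign (0.0161%) and 7 with a negative sign (0.0226%), all below the 40th percentile and with 3 or more arrays at the floor, and 0 passed with the filter (lowest adjusted p = 0.113). Gpd1 read 7.58 and 7.25 in ADX PM arrays, against 9.24 and 9.23 in Sham PM arrays. It read 7.23 and 7.01 in ADX AM arrays, against 7.83 and 7.82 in Sham AM arrays. Its ADX difference was thus 1.11 more negative in PM than in AM (unadjusted p = 0.00222, adjusted p = 0.688). Sgk1 had the same shape, 1.34 more negative in PM (unadjusted p = 0.0353), as did Gjb2 (0.49, unadjusted p = 0.00534) and an unnamed probe set that passed the filtered test (0.91, unadjusted p = 0.00208). For Per2 (-0.77, unadjusted p = 0.00415) and Fos (-0.83, unadjusted p = 0.00965) the sign was the same, but the groups crossed. Both were higher in ADX than in Sham in AM and lower in PM. Per2 read 7.12 and 7.11 in ADX AM arrays, against 6.72 and 6.77 in Sham AM arrays. In PM it read 6.88 and 6.60 in ADX arrays, against 7.20 and 7.09 in Sham arrays. Glul had the opposite sign (0.43, unadjusted p = 0.00409). None passed the adjustment, with 2 arrays for each treatment and time.

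The size of the ADX change was set against other regions, by subtracting from each locus coeruleus array the arrays of the same treatment, time and replicate letter in those regions. Whether letters match between regions is not stated; without this matching the counts below were 0 for the 5 regions and 3 for the dorsal raphe. The change in the locus coeruleus minus the mean change in septum, hypothalamus, amygdala, hippocampus and dorsal raphe passed in 0 of 31042 probe sets (0%; 1906 at unadjusted p under 0.05). Against the dorsal raphe alone 1 passed (0.00322%), an unnamed probe set at the floor in all 4 locus coeruleus Sham arrays. Above the 40th percentile, 9 passed with a positive difference (0.0483%) and 4 with a negative one (0.0215%). The largest was that of Dbndd1, which averaged 4.42 in ADX and 6.07 in Sham arrays of the locus coeruleus, against 5.76 in ADX and 4.50 in Sham arrays of the dorsal raphe (difference of changes -2.90, adjusted p = 0.020). Gbf1 (-2.47) followed in that direction, and Rpl3 (1.97) led in the other. These 3 were chosen after their values were seen. The Dbndd1 probe set is the dim one, with 2 locus coeruleus ADX arrays at the floor. The brighter Dbndd1 probe set hardly differed between ADX and Sham in the locus coeruleus. Of the 16 named genes of the filtered test, 12 had the same sign of change in all 6 other regions. The share of all probe sets that do so was not computed, so this count has no background. Sult1a1 differed by -1.57 in the locus coeruleus and by -2.22 to -1.65 elsewhere, Htra1 by -0.96 and by -1.33 to -0.91, Gpd1 by -1.26 and by -1.42 to -0.92, Hbb by -1.86 and by -2.04 to -1.38, and Ret by -0.84 and by -0.93 to -0.46. The 4 without one sign were Gjb2, Upp1, Zfp24 and Dbndd1, at -0.28 to 0.38 elsewhere for Zfp24 and -1.12 to 1.26 for Dbndd1. Their difference from the 5 regions had unadjusted p of 0.252, 0.000493, 6.49e-05 and 0.000885 and did not pass the adjustment over all probe sets (adjusted p = 0.907 for Gjb2 and 0.569 for the other three). These 4 were chosen by their change in the same locus coeruleus arrays and their signs elsewhere. The choice itself favours a low unadjusted p, so these values are no support for a regional difference. Of the glucocorticoid-induced list, 10 to 15 members were lower at unadjusted p under 0.05 in each other region, against 11 here, with medians of -0.34 to -0.13. Over all 31042 probe sets, 996 to 1458 were lower at that p in each other region, against 944 here. Whether 1 animal gave several regions is not stated, so the regions may not be independent.

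**Figure D5:**
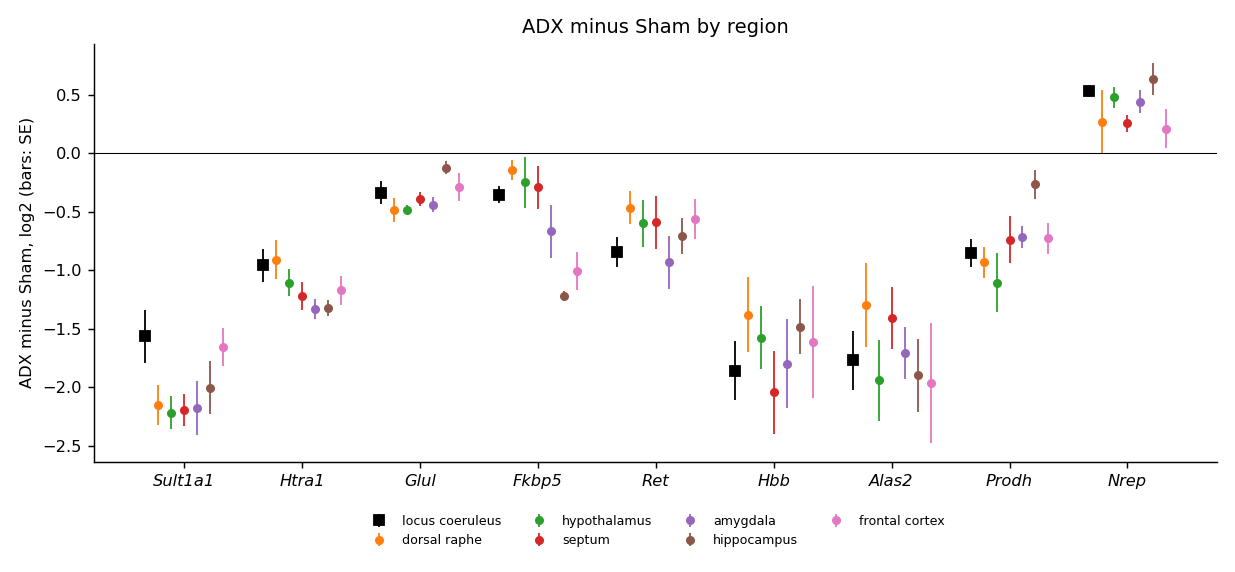
Log2 change, ADX minus Sham, with its SE, in the locus coeruleus (black squares) and 6 other regions (4 arrays against 4, 3 against 3 in the frontal cortex) for 9 genes, Glul by its brightest probe set. Signs agree across regions for each gene shown, and for Sult1a1 the locus coeruleus has the change closest to 0, at -1.57. Gjb2, Upp1, Zfp24 and Dbndd1, which passed the filtered test but differed in sign between regions, are not shown. The agreement seen here thus depends on the genes picked.

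The ADX arrays were set against the pADX arrays as well; this comparison shares the ADX arrays with the one above, so the values are given side by side and not as a second test. No probe set passed over all (0%; lowest adjusted p = 0.0755, 1920 at unadjusted p under 0.05), and 10 passed the filtered test, all lower in ADX (0.0537%). They were Hbb, the 5 globin probe sets shared by several genes, Ret, Prodh and 2 probe sets without a gene name. Ret averaged 7.51 in ADX arrays and 8.33 in pADX arrays (log2 change -0.82, filtered adjusted p = 0.0151), with Sham arrays at 8.36. Prodh averaged 6.61 in ADX arrays and 7.55 in pADX arrays (-0.94, filtered adjusted p = 0.0141), with Sham arrays at 7.46. Sult1a1 averaged 4.77 in ADX arrays, against 6.34 in Sham and 5.92 in pADX arrays, and its difference from pADX was -1.15 (filtered adjusted p = 0.0834). Hbb averaged 9.66 in ADX arrays, against 11.52 in Sham and 11.21 in pADX arrays. Gpd1 in pADX PM arrays read 7.90 and 7.95, below the Sham PM arrays and above the ADX PM arrays.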

How the data were processed

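RNA from rat brain regions had been hybridised to 82 expression arrays; the deposited table holds 1 linear intensity for each of 31099 probe sets and array. The software and scaling behind these intensities are not stated in the labels, and per the deposited values 45 arrays shared 1 trimmed mean while 37 did not. Intensities were quantile normalized over all 82 arrays, floored at 16 and put on the log2 scale (27.46% of values at the floor); 57 control probe sets were left out. The array count limits the precision. limma 3.58.1 in R 4.3.3 (lmFit, then eBayes with a trend of spread on level) compared the groups with time of day as a covariate, and p-values were adjusted by the Benjamini-Hochberg method over 31042 probe sets; all p-values in the text are limma's unless called exact. The test restricted to probe sets above the 40th percentile was a listed alternative. Region differences were fitted on differences between arrays of the same treatment, time and replicate letter, with the trend taken on the locus coeruleus level. Because quantile normalization equalizes the share of values at the floor, that share was measured on the deposited scale. It was 27.86% to 31.61% in locus coeruleus ADX arrays and 22.92% to 28.19% in Sham arrays, with overlap (two-sided exact permutation p = 0.0571).

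Of the tested probe sets 20826 carry 1 gene symbol, 436 several and 9780 none, and 20758 matched RefSeq by gene ID; a gene with several probe sets is represented by 1. Genes were named by a rule: up to 10 per direction above the 40th percentile by lowest p, those passing the test and a set of hormone, noradrenergic and clock genes. The named genes of the filtered test, and members of lists with an unadjusted p under 0.05, were added after their values were seen. The members and lists were chosen with earlier results of these data known. Promoters are RefSeq's for GRCr8. Replicate letters did not pair the locus coeruleus arrays across groups (correlations of deviations -0.066 to 0.056), so no block was used; pairing between regions was not checked. The fits were tested on simulated data.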

Additional observations from a re-analysis of the deposited data

Results flagged for a closer look

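Per1 stood at 5.248 in Sham PM replicate 1, far from the other Sham arrays by Dixon's test at its critical value for 4 samples. It was the 1 case among 117 groups of 4 arrays tested, where chance gives about 1 in 20. Of the Sham arrays 2 were at the floor, which narrows their spread, and the group pools AM and PM arrays. The critical value therefore does not strictly apply.

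The ADX difference itself differed between PM and AM, past the adjusted threshold, in 12 probe sets, all dim and with arrays at the floor in either group. On the log2 scale, PM minus AM, the difference was -1.7309 for Cflar, a regulator of cell death, 0.1991 for the retinoid receptor Rxra, 0.4414 for Vav2, -0.4814 for Slc25a41 and 0.7152 for Unk. For the probe sets without a gene name it was -0.2286, 0.3072, -0.4116, 0.5741, -0.3378, -0.5071 and -0.2296.

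One probe set without a gene name had an ADX difference 1.5906 larger in the locus coeruleus than in the dorsal raphe, past the adjusted threshold; it was at the floor in all 4 locus coeruleus Sham arrays.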

How the results depend on the processing

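The Dbh covariate, the glucocorticoid count and the settings repeated on the filtered probe sets were chosen after seeing the data. The 2 calls over all probe sets became 27 with the filter on low values, 8 with the floor at 1, 5 without the time term, 1 with robust variances, 1 with array weights, 23 in AM arrays only and 19 in PM arrays only. They became 0 with trimmed-mean scaling, cyclic loess, the floor at 32, all 12 arrays in the fit, the beta-actin covariate or the replicate block, and 0 to 5 when 1 array was left out. On the deposited scale 11852 passed, 11841 of them lower, with a median change of -0.42; this scale differs between ADX and Sham arrays.

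The 27 filtered calls became 14580 on the deposited scale, 17 with the Dbh covariate, 6 in AM arrays only, 1 in PM arrays only, 0 with the beta-actin covariate, 0 without the trend and 12 to 33 when 1 array was left out. They numbered 21 to 29 in the other settings, 24 of them with the replicate block. All 27 kept their direction in all 22 settings except on the deposited scale, where 26 did. The 11 lower glucocorticoid-induced members became 37 on the deposited scale and 4 with the beta-actin covariate.

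The 0 calls against pADX became 1 on the deposited scale, 10 with the filter and 0 to 2 when 1 array was left out. For the ADX effect PM minus AM in locus coeruleus, the 12 calls became 51 on the deposited scale, 0 with the filter and 221 to 382 when 1 array was left out, which leaves a lone array in 1 combination of treatment and time, assumed to vary like the others. For the ADX effect locus coeruleus minus 5 other regions, the 0 calls became 163 on the deposited scale and 0 to 1 when 1 array was left out. The 1 call against the dorsal raphe became 2 on the deposited scale, 0 with the floor at 32, 13 with the filter, 0 with the replicate block, 3 with arrays not paired and 0 to 2 when 1 array was left out.

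Of 46 named genes, 27 kept their sign in all 25 settings. On the deposited scale the sign turned for Nrep (-0.050), Rbm45 (-0.35), Nid1 (-0.11), Abcg1 (-0.36), Pyurf (-0.38), Nr3c1 (-0.28), Nr3c2 (-0.36), Slc18a2 (-0.20), Gch1 (-0.37), Adra2a (-0.35), Gal (-0.12), Dbp (-0.27) and Fos (-0.52). With the beta-actin covariate it turned for Ddit4 (0.12), Dbh (-0.30), Adra2a (-0.18), Gal (-0.14) and Per2 (0.39). In AM arrays only it turned for Sgk1 (0.0056), Tsc22d3 (0.031), Ddit4 (0.053) and Per2 (0.37), and in PM arrays only for Bmal1 (0.32) and Fos (-0.38). Per2 also turned with trimmed-mean scaling (0.0048), cyclic loess (0.0043), array weights (0.030) and the Dbh covariate (0.033). When 1 array was left out, values spanned 0 for Fos (-0.12 to 0.14), Ddit4 (-0.18 to 0.028), Per2 (-0.10 to 0.12), Adra2a (-0.019 to 0.44) and Bmal1 (-0.26 to 0.11). The cause of these changes was not tested.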
